A study of Mus musculus with 12 samples.

Results

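The 10 genes described here are Il1b, Il1a, Il1rn, Il1r2, Il18, Nlrp3, Pycard, Casp1, Casp4 and Gsdmd, which encode IL-1 family cytokines, their antagonists and parts of the inflammasome. They were chosen by symbol and found among the 53801 genes of a count table of mouse eosinophils, and all 10 were in it. RNA was measured in 12 libraries, 3 from each of 4 groups: bone marrow and blood eosinophils of Atg5-knockout mice and of control mice. The Atg5-knockout mice carried Atg5flox/flox, eoCre and Il5tg, and the control mice carried eoCre and Il5tg without floxed Atg5. In eoCre, Cre was knocked into the eosinophil peroxidase gene (Epx), so deletion is limited to cells that have used that gene, and the control cells express the recombinase as well. The Il5 transgene, shared by all groups, is driven in T cells and raises eosinophil numbers, so none of these cells came from a mouse with ordinary IL-5. Eosinophils of both tissues were isolated by depleting other white blood cells with antibodies, but the steps before that differed. Blood was spun over a density medium and its red cells were lysed in cold water. Bone marrow was flushed from the bones and filtered. Every comparison of blood with bone marrow below therefore holds tissue and preparation together, and the part of the preparation was not tested. The age of the mice behind these libraries, and whether a library pools animals, is not given in the sources used here, so p-values measure the spread between these libraries, which may be technical.

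Il1b and Il18 encode inactive precursors, and that of Il1b is made after NF-kB signalling. Caspase-1 cuts the precursors once a sensor such as NLRP3 has gathered the adaptor ASC, encoded by Pycard, into an inflammasome. Caspase-1 and caspase-11, the latter encoded by Casp4 in the mouse, also cut gasdermin D, whose free end forms the pores through which IL-1β leaves the cell. IL-1α is active without that cut, the receptor antagonist (Il1rn) blocks the IL-1 receptor, and IL1R2 is a decoy receptor that binds IL-1 without signalling. The study asked what loss of the autophagy gene Atg5 does to eosinophils and considered IL-1β release by macrophages near them. The libraries hold RNA of isolated eosinophils, with that of other cells as given below, so cutting, release and protein were not measured here.

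Total counts ran from 18885052 to 30270166 per library. All 10 eosinophil markers fixed for the check, among them Siglecf and Ccr3, were detected in every library. Together they took 1.80% to 4.05% of counts in blood and 8.04% to 10.2% in bone marrow, and single markers moved in either direction. In control mice mean Siglecf was 446 CPM in bone marrow and 843 CPM in blood, while mean Prg2 was 45640 and 16160 CPM. Replicate 1 of each blood group stood apart. The 5 B cell markers together took 0.0848% of counts in Atg5-knockout blood replicate 1 and 0.0382% in control blood replicate 1, against 0.00103% to 0.00330% in the other 10 libraries. The 7 red cell markers took 14.6% of counts in control blood replicate 1 and at most 1.42% elsewhere. Atg5 itself, counted over the whole gene and not over the deleted part, was at 42.2, 44.8 and 41.4 CPM in control bone marrow and 31.0, 32.0 and 34.5 in Atg5-knockout bone marrow, without overlap. In blood it was at 44.0, 58.9 and 40.0 CPM in control mice and 36.0, 52.2 and 51.1 in Atg5-knockout mice, which overlapped. A count over the whole gene does not show whether part of it is missing.

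Levels are given as CPM (counts relative to the library total, scaled by the TMM method over the 12 libraries) in the order of replicates 1, 2 and 3. Of the 10 genes, 7 (Il1b, Il1a, Il1rn, Il1r2, Il18, Casp4 and Gsdmd) were called higher in blood than in bone marrow (adjusted p under 0.05). The same 7 were called in control mice and in Atg5-knockout mice. For Il1a the filter on low counts fixed that direction. Over all genes tested, 16.2% were called higher in control mice and 23.5% in Atg5-knockout mice. With any 1 library left out, 3 to 6 of the 10 were called in control mice and 6 to 9 in Atg5-knockout mice. None of the 10 passed the test of genotype in either tissue. Nlrp3, Pycard and Casp1 passed in no comparison.

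**Figure D1:**
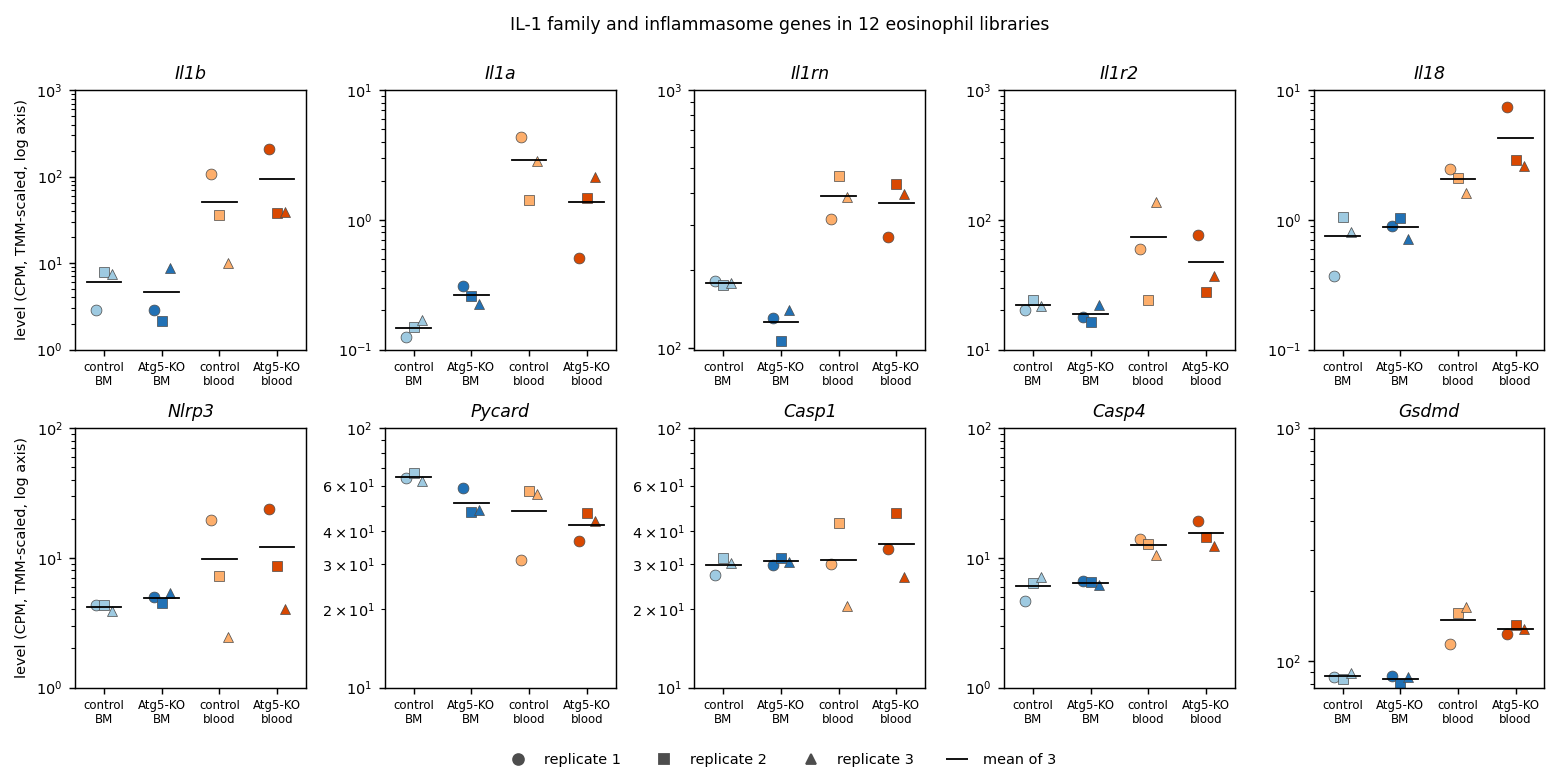
Level of each of the 10 genes (CPM on a log axis) in the 12 libraries, with circles, squares and triangles for replicates 1, 2 and 3 and a bar at the mean of 3; BM is bone marrow and Atg5-KO is Atg5-knockout. Blood libraries of Il1b spread from 10.1 to 207 CPM, while those of Gsdmd stay between 119 and 171 CPM.

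Il1b (ENSMUSG00000027398; GRCm38 chr2:129364570-129371139, minus strand), which encodes the secreted cytokine IL-1β, spanned the widest range. It was at 2.85, 7.91 and 7.47 CPM in control bone marrow and 2.89, 2.16 and 8.89 CPM in Atg5-knockout bone marrow. In blood it was at 108, 36.2 and 10.1 CPM in control mice and 207, 37.9 and 39.2 CPM in Atg5-knockout mice. Every blood library was above every bone marrow library, and replicate 1 was the highest of the 3 in both blood groups. On the log2 scale the difference of blood from bone marrow was 3.11 ± 0.77 (SE) in control mice (edgeR quasi-likelihood test, adjusted p = 0.0145) and 4.43 ± 0.81 in Atg5-knockout mice (adjusted p = 0.00209). Without control bone marrow replicate 1 the first of these was 2.75 with an adjusted p of 0.0636. In bulk RNA, fewer cells that express a gene and less RNA per cell cannot be told apart.

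Il1a (ENSMUSG00000027399; chr2:129299610-129309972, minus strand), the neighbour of Il1b and the gene of IL-1α, was close to the limit of detection in bone marrow. There it was at 0.124, 0.1499 and 0.169 CPM in control mice, which is 13 counts in all, and at 0.310, 0.258 and 0.225 CPM in Atg5-knockout mice, which is 23 counts. In blood it was at 4.38, 1.41 and 2.84 CPM in control mice and 0.505, 1.48 and 2.14 CPM in Atg5-knockout mice. All blood libraries lay above all bone marrow libraries. The log2 difference was 4.26 ± 0.59 in control mice (edgeR, adjusted p = 0.000989) and 2.41 ± 0.61 in Atg5-knockout mice (adjusted p = 0.0106). Il1a passed the filter on low counts through its blood libraries alone, so that it had to be higher in blood to be tested. In Atg5-knockout mice the call was lost without bone marrow replicate 2 (adjusted p = 0.0555) or replicate 3 (adjusted p = 0.0569). Il1a shares 222 exon bases with an antisense gene, Gm14023, which held 130 counts over the 12 libraries, and strand was not used in counting.

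The 250 bases before the RefSeq start of each gene (GRCm38.p6) were searched on both strands for TATAAA, the TATA box core, and for the NF-kB consensus, and 9 of the 10 genes had an entry, with 13 starts in all; Gsdmd had none. The promoters of Il1b, Il1a and Casp4 are shown as examples: the neighbouring ligands carry TATAAA close to the start, and Casp4 carries the NF-kB consensus. Capitals mark TATAAA in Il1b (chr2:129371140-129371389, minus strand) and Il1a (chr2:129309973-129310222, minus strand), and the NF-kB consensus in Casp4 (chr9:5308599-5308848, plus strand). Each is written 5′ to 3′ along the gene.
Il1b: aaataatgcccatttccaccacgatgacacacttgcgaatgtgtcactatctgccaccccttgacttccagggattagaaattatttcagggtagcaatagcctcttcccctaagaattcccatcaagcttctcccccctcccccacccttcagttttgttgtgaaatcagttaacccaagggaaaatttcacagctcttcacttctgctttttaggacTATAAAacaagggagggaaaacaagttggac
Il1a: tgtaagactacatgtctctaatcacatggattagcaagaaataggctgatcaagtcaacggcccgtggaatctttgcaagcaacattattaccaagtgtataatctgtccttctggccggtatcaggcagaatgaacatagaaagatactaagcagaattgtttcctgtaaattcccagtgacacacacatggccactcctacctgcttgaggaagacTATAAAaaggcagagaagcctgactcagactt
Casp4: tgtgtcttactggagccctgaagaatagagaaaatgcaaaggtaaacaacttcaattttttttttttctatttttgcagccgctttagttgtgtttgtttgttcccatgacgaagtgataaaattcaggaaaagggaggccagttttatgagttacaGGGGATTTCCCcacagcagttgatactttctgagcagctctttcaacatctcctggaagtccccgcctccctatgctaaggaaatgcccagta
TATAAA ran from base -31 to -26 before the start in Il1b and from -32 to -27 in Il1a, so the neighbouring ligands had it at nearly the same place. Of the 32851 promoters in the table, 12.4% held TATAAA somewhere in these 250 bases and 2.32% held it on the gene's strand with its first base 20 to 50 bases before the start. The capitals in Casp4 hold overlapping matches from base -93 to -83, and 3.90% of promoters held the consensus. Il18 had TATAAA on the opposite strand, and 1 of the Nlrp3 starts had a consensus match. Such a match is a description of the letters and says nothing of use in these cells.

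Il1rn (ENSMUSG00000026981; chr2:24336853-24351494, plus strand), the gene of the IL-1 receptor antagonist, was at 181, 176 and 178 CPM in control bone marrow and 130, 106 and 140 CPM in Atg5-knockout bone marrow. In blood its level was 315, 464 and 385 CPM in control mice and 270, 432 and 397 CPM in Atg5-knockout mice. Blood exceeded bone marrow in every library, and in bone marrow the 3 Atg5-knockout libraries were all below the 3 control libraries. The log2 difference of blood from bone marrow was 1.14 ± 0.17 in control mice (edgeR, adjusted p = 0.00150) and 1.61 ± 0.19 in Atg5-knockout mice (adjusted p = 0.000222).

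Il1r2 (ENSMUSG00000026073; chr1:40074079-40125231, plus strand), the decoy receptor, was at 20.2, 24.3 and 21.6 CPM in control bone marrow and 17.9, 16.3 and 21.9 CPM in Atg5-knockout bone marrow. Blood libraries were at 59.3, 24.2 and 137 CPM in control mice and 76.9, 27.9 and 36.8 CPM in Atg5-knockout mice. The control groups overlapped by 1 library, since blood replicate 2 lay just below bone marrow replicate 2, and the Atg5-knockout groups did not overlap. Control blood replicate 3 had the highest Il1r2 and the lowest Il1b of the blood libraries. The difference was 1.75 ± 0.51 in control mice (edgeR, adjusted p = 0.0273) and 1.40 ± 0.34 in Atg5-knockout mice (adjusted p = 0.00854). In control mice it was lost without any 1 of the 3 bone marrow libraries (adjusted p = 0.0756 to 0.101) or without blood replicate 3 (0.96, adjusted p = 0.0713), and with limma-voom (adjusted p = 0.0617).

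Il18 (ENSMUSG00000039217; chr9:50554827-50581840, plus strand), the other cytokine cut by caspase-1, was scarce. Its level was 0.372, 1.05 and 0.812 CPM in control bone marrow and 0.895, 1.03 and 0.712 CPM in Atg5-knockout bone marrow. The blood libraries had 2.49, 2.12 and 1.61 CPM in control mice and 7.40, 2.92 and 2.59 CPM in Atg5-knockout mice. Here the 4 groups fell into 3 separate ranges: bone marrow of both genotypes, control blood, and Atg5-knockout blood above all others. The log2 difference of blood from bone marrow was 1.49 ± 0.50 in control mice (edgeR, adjusted p = 0.0471) and 2.35 ± 0.47 in Atg5-knockout mice (adjusted p = 0.00347). The control call did not hold without any 1 of the 6 libraries, with adjusted p between 0.0544 and 0.142.

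Nlrp3 (ENSMUSG00000032691; chr11:59541568-59566956, plus strand), the sensor, was nearly constant in bone marrow and widely spread in blood. It was at 4.34, 4.35 and 3.89 CPM in control bone marrow and 4.96, 4.48 and 5.36 CPM in Atg5-knockout bone marrow. Blood gave 19.7, 7.23 and 2.45 CPM in control mice and 23.8, 8.62 and 4.03 CPM in Atg5-knockout mice. In both blood groups replicate 1 was the highest and replicate 3 was below the bone marrow libraries of the same genotype, so blood and bone marrow overlapped. Its difference was 1.25 ± 0.62 in control mice (95% interval -0.46 to 2.96, edgeR adjusted p = 0.1495) and 1.37 ± 0.53 in Atg5-knockout mice (-0.12 to 2.85, adjusted p = 0.0614). Leaving out blood replicate 3 brought it past the threshold in both, to 1.72 (adjusted p = 0.0169) in control mice and 1.78 (adjusted p = 0.00610) in Atg5-knockout mice. It was also called without the filter on low counts in both (adjusted p = 0.0247 and 0.0123) and with DESeq2 in Atg5-knockout mice (adjusted p = 0.0135).

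Pycard (ENSMUSG00000030793; chr7:127989708-127993867, minus strand) encodes ASC, the adaptor, and shares 485 exon bases with the antisense gene Gm45205, which held 19 counts over the 12 libraries. Pycard was at 64.4, 67.1 and 62.8 CPM in control bone marrow and 58.7, 47.5 and 48.5 CPM in Atg5-knockout bone marrow. Blood libraries were at 30.9, 57.3 and 55.5 CPM in control mice and 36.6, 46.9 and 44.0 CPM in Atg5-knockout mice. In both genotypes the blood libraries were below the bone marrow libraries, without overlap. The difference did not pass the test, at -0.42 ± 0.23 in control mice (95% interval -1.06 to 0.21, edgeR adjusted p = 0.180) and -0.22 ± 0.15 in Atg5-knockout mice (-0.62 to 0.19, adjusted p = 0.248). When libraries were scaled by their size alone, which lowers the median of all genes in blood by 0.31 in control mice and 0.24 in Atg5-knockout mice on the log2 scale, it did, at -0.73 (adjusted p = 0.0343) and -0.45 (adjusted p = 0.0213).

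Casp1 (ENSMUSG00000025888; chr9:5298517-5307265, plus strand), the protease that cuts pro-IL-1β and pro-IL-18, was at 27.0, 31.5 and 30.2 CPM in control bone marrow and 29.7, 31.7 and 30.5 CPM in Atg5-knockout bone marrow. Blood gave 29.8, 42.9 and 20.5 CPM in control mice and 34.1, 46.9 and 26.7 CPM in Atg5-knockout mice. The blood libraries lay on both sides of the bone marrow libraries. The difference was 0.09 ± 0.26 in control mice (95% interval -0.63 to 0.80, edgeR adjusted p = 0.820), negative under library size alone and without control blood replicate 2. It was 0.29 ± 0.19 in Atg5-knockout mice (-0.24 to 0.82, adjusted p = 0.237), and 0.46 (adjusted p = 0.0397) without blood replicate 3.

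Casp4 (ENSMUSG00000033538; chr9:5308828-5336783, plus strand), which lies next to Casp1, differed from it. Casp4, the gene of caspase-11, which senses bacterial lipopolysaccharide inside the cell, was at 4.68, 6.45 and 7.14 CPM in control bone marrow and 6.58, 6.52 and 6.22 CPM in Atg5-knockout bone marrow. Blood libraries had 14, 12.9 and 10.5 CPM in control mice and 19.4, 14.5 and 12.4 CPM in Atg5-knockout mice, with every blood library above every bone marrow library. The difference was 1.05 ± 0.26 in control mice (edgeR, adjusted p = 0.0145) and 1.32 ± 0.22 in Atg5-knockout mice (adjusted p = 0.00120). In control mice it missed the threshold without bone marrow replicate 1 (adjusted p = 0.0611) and with library size alone (adjusted p = 0.0558).

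Gsdmd (ENSMUSG00000022575; chr15:75862327-75867408, plus strand), the gene of the pore-forming gasdermin D, varied little in bone marrow. It was at 85.8, 83.4 and 88.6 CPM in control bone marrow and 86.6, 79.9 and 85.2 CPM in Atg5-knockout bone marrow. Blood was at 119, 161 and 171 CPM in control mice and 131, 143 and 138 CPM in Atg5-knockout mice, above bone marrow in every library. The difference was 0.82 ± 0.17 in control mice (edgeR, adjusted p = 0.00646) and 0.78 ± 0.11 in Atg5-knockout mice (adjusted p = 0.000538).

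Counted over the 10 genes, 7 were called higher and 0 lower in blood of control mice, where 16.2% of the 13669 genes tested were called higher and 18% lower. In Atg5-knockout mice the count was again 7 and 0, against 23.5% and 24.1% of 13853 genes, and the 7 genes were those called in control mice. Without Il1a, whose direction the filter on low counts fixed, 6 of 9 were called higher in either genotype, with medians of 1.14 and 1.37. Of all genes, 1903 were called higher in both, which is 86.0% of the calls in control mice and 58.5% of those in Atg5-knockout mice. The median log2 difference of the 10 genes was 1.19 in control mice and 1.39 in Atg5-knockout mice, beside medians of -0.0029 and -0.010 over all genes tested. Blood and bone marrow did not overlap for 6 genes higher in blood and 1 lower in control mice, where 22.3% and 27.4% of all genes were so. In Atg5-knockout mice it was 7 and 1, against 25.9% and 34.2%. Il1a is among the genes counted as higher without overlap in both genotypes. Leaving out control bone marrow replicate 1 left 3 of the 7 called in control mice, with Il1b, Il1r2, Il18 and Casp4 lost, while the share of all genes called went from 34.2% to 21.4%.

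**Figure D2:**
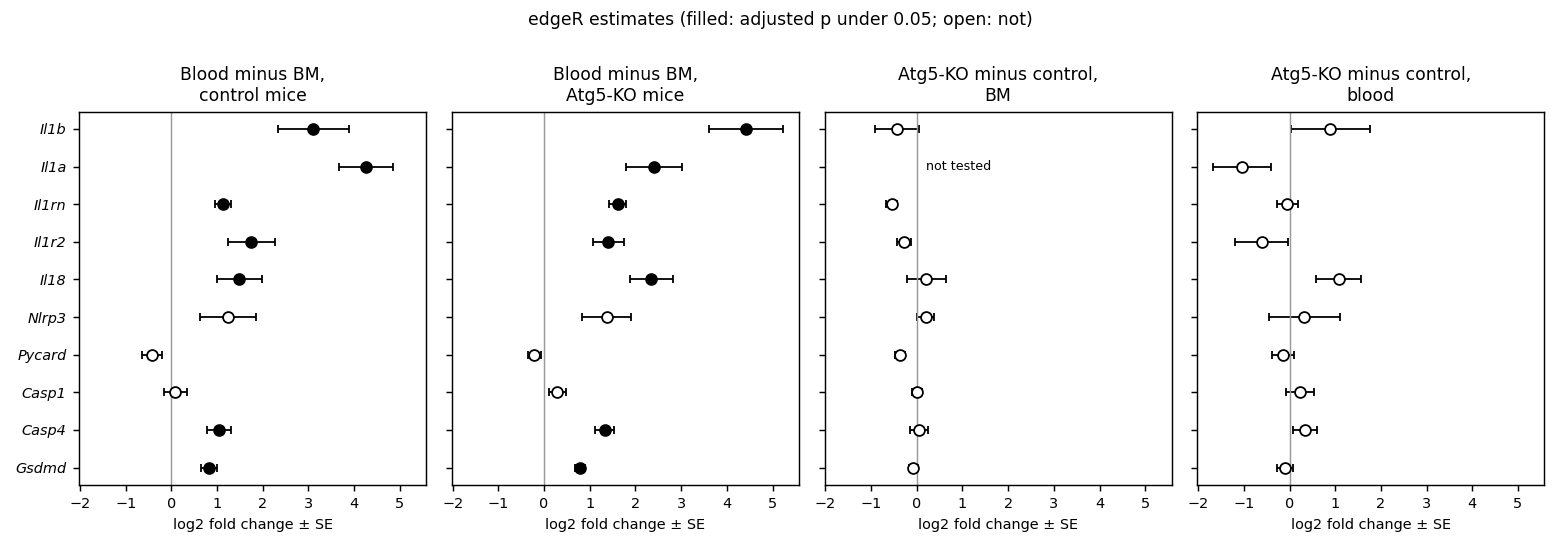
Log2 fold change of each gene with its standard error in the 4 comparisons (filled circles, adjusted p under 0.05). In each comparison of blood with bone marrow (BM) 7 circles are filled and none of the genotype comparisons (Atg5-KO is Atg5-knockout) has one; Il1a was not tested in the marrow comparison.

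Other cells moved with tissue and with replicate 1. The 6 cycling-cell markers took 0.121% to 0.182% of counts in bone marrow and 0.00327% to 0.00953% in blood. The summed level of the 10 neutrophil markers was 2.06% to 2.99% of counts in bone marrow and 1.19% to 2.13% in blood, and the 10 monocyte and macrophage markers took 0.252% to 0.308% in all libraries. None of these markers was at 0 in any library. Within the groups, Il1b was highest in the libraries with the most of some neutrophil markers. In both blood groups 8 of the 10 neutrophil markers were highest in the library highest in Il1b, replicate 1, where 40.3% of all genes in Atg5-knockout blood and 38.5% in control blood were. In bone marrow it was 8 of 10 in Atg5-knockout replicate 3 (32.9% of all genes) and 5 of 10 in control replicate 2 (30.3%). Stfa2l1, a neutrophil marker picked after its values were seen, was at 2.98, 8.58 and 9.33 CPM in control bone marrow and 2.10, 2.16 and 6.52 CPM in Atg5-knockout bone marrow. It stood at 17.8, 13.2 and 1.08 CPM in control blood and 31.7, 5.79 and 5.92 CPM in Atg5-knockout blood. Other markers of the list had another order between tissues: Camp was at 1222 to 1857 CPM in bone marrow and 51.2 to 338 CPM in blood. Of the 10 neutrophil markers, the number lowest in the library with the least Il1b was 10 in control bone marrow, 6 in Atg5-knockout bone marrow, 8 in control blood and 2 in Atg5-knockout blood, beside 36.1%, 27.3%, 30.4% and 26.5% of all genes. All 5 B cell markers were highest in replicate 1 of both blood groups. The part of these cells in the levels of Il1b, Nlrp3 and the other genes was not tested.

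**Figure D3:**
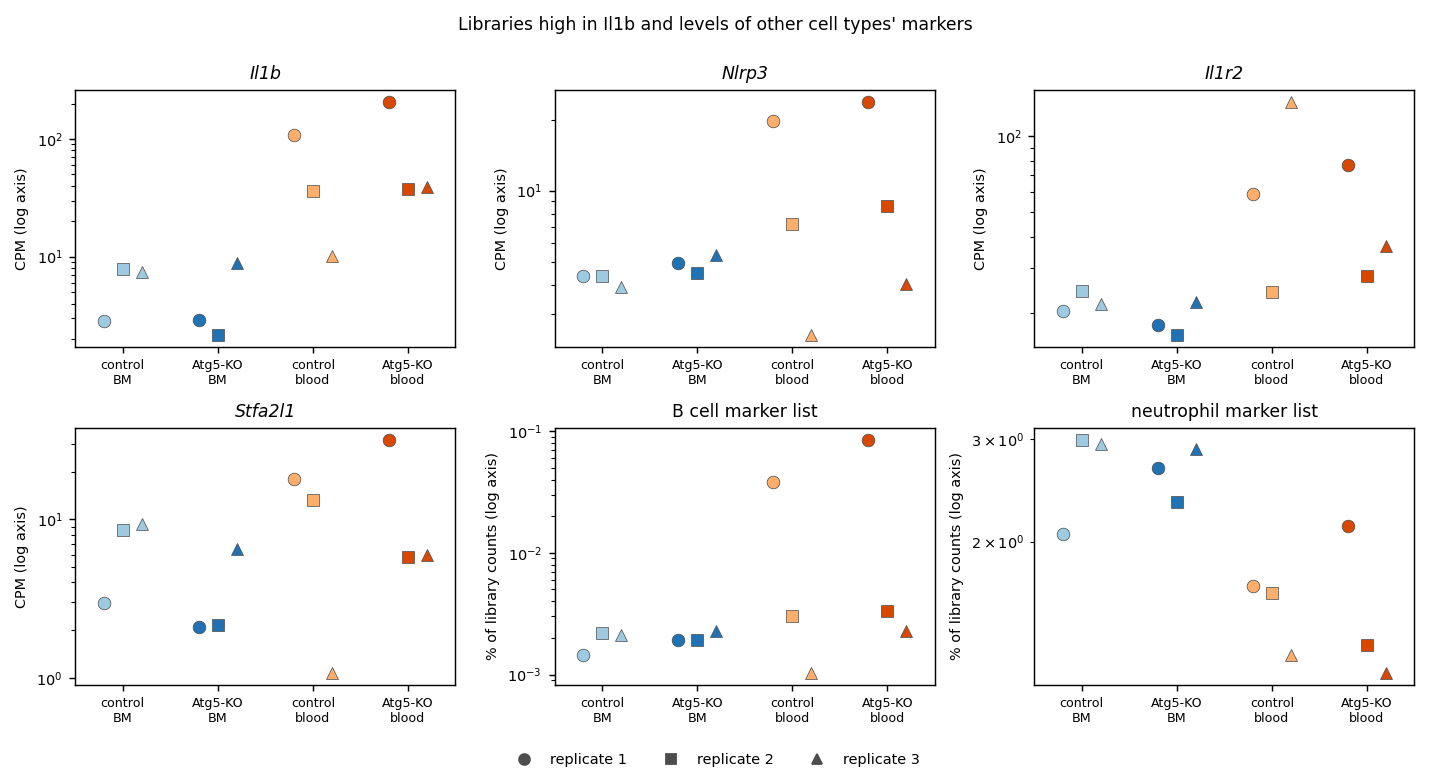
Il1b, Nlrp3, Il1r2 and the neutrophil marker Stfa2l1 (CPM) and the summed B cell and neutrophil markers (% of library counts), by group and replicate, on log axes. Stfa2l1 was picked after its values were seen, and other markers of its list, such as Camp, had another order between tissues. Replicate 1 is the highest library of both blood groups in the panels of Il1b, Nlrp3, Stfa2l1, B cell and neutrophil markers, while the highest Il1r2 is in control blood replicate 3, at 137 CPM.

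The 5 genes whose log2 CPM was most like that of Il1b over all 12 libraries were Trim30b (Pearson r = 0.984), Lef1 (0.981), Slfn1 (0.971), Tiparp (0.967) and Iglv1 (0.961). Within the 6 blood libraries they were Pou2f2 (0.997), Pacsin1 (0.996), Lynx1 (0.996), Ifi208 (0.995) and Ccr7 (0.994). These are the top of 14712 genes, and they share libraries, tissue and the B cell markers of replicate 1 with Il1b, so the values are descriptions.

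Between genotypes in bone marrow, Il1rn and Pycard were lower in all 3 Atg5-knockout libraries than in all 3 control libraries and Nlrp3 was higher, though none of the 9 genes tested was called. Over all genes 0.348% of 13781 were called, and the groups did not overlap for 9.03% with Atg5-knockout higher and 5.51% with it lower. The log2 difference of Il1rn, on values given above, was -0.55 ± 0.12 (95% interval -0.87 to -0.22, edgeR adjusted p = 0.0937), the 79th lowest p of all genes. It was called in other fits. DESeq2 gave -0.55 with an adjusted p of 0.00245, in a fit that called 1.43% of genes, and edgeR without the filter on low counts gave -0.55 with an adjusted p of 0.000927, in a fit that called 1.71%. Pycard differed by -0.37 ± 0.12 (-0.69 to -0.05, adjusted p = 0.289) and Nlrp3 by 0.19 ± 0.19 (-0.34 to 0.72, adjusted p = 0.788). The other values were -0.44 ± 0.48 for Il1b, -0.28 ± 0.15 for Il1r2, 0.21 ± 0.43 for Il18, 0.01 ± 0.11 for Casp1, 0.04 ± 0.19 for Casp4 and -0.08 ± 0.10 for Gsdmd. Intervals for the abundant genes were narrow, at -0.31 to 0.32 for Casp1 and -0.34 to 0.19 for Gsdmd, and that of Il1b was wide, at -1.78 to 0.90. Il1a had too few counts to be tested.

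Between genotypes in blood, 0 of the 10 genes were called, beside 0.0371% of 13460 genes, and 0 had an unadjusted p under 0.05. DESeq2 and limma-voom called 0 of the 10 as well. Il18 was the 1 gene whose groups did not overlap, where 3.25% of all genes were higher in Atg5-knockout blood without overlap and 4.29% lower. Its difference was 1.08 ± 0.49 (95% interval -0.29 to 2.45, edgeR adjusted p = 1), and 0.60 without both blood libraries numbered 1. Il1b differed by 0.89 ± 0.87 (-1.51 to 3.30). It was -0.41 without Atg5-knockout replicate 1 and 0.77 without both libraries numbered 1. Nlrp3 differed by 0.33 ± 0.78 (-1.84 to 2.49), by -0.63 without Atg5-knockout replicate 1 and by 0.42 without both. Libraries of the same number deviated together in blood, and within all 3 such pairs Il1b, Il18, Nlrp3, Casp1 and Casp4 were higher in the Atg5-knockout library, as were 14.5% of all genes tested, with 16.2% lower in all 3. With the pairs as a block, edgeR called none of the 10, with Il1b at 0.99 and an adjusted p of 0.524. Il1a differed by -1.04 ± 0.64 (-2.80 to 0.73), and by -0.19 without both libraries numbered 1. Il1r2 differed by -0.61 ± 0.58 (-2.22 to 1.01), which turned to 0.20 without control replicate 3. Smaller values were found for Il1rn (-0.05 ± 0.23), Pycard (-0.14 ± 0.25), Casp1 (0.23 ± 0.30), Casp4 (0.33 ± 0.26) and Gsdmd (-0.10 ± 0.18). A difference of 1 on the log2 scale in either direction lay inside the intervals of Il1b, Nlrp3 and Il1r2, and outside those of Il1rn (-0.69 to 0.59) and Gsdmd (-0.60 to 0.41).

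The difference between the genotype effects in blood and in bone marrow, tested as an interaction over the 12 libraries, called 0 of the 10 genes and 0% of 14712 genes. DESeq2 called 11 genes in this test and edgeR found 740 at an unadjusted p under 0.05. Among the 10, Il1a was the 1 gene with an unadjusted p under 0.05, with a difference of -1.87 ± 0.86 (edgeR adjusted p = 0.942), from counts of 13 and 23 in the bone marrow groups. Il1rn gave 0.45 ± 0.26 (95% interval -0.16 to 1.05, adjusted p = 0.942). This test and the comparisons above share libraries.

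Per kilobase of exon (RPKM), the order of the genes differed between bone marrow and blood. The length used holds every annotated exon base of a gene, 3800 for Pycard and 1497 for Casp1. It can exceed the length of the transcripts present, so the order between genes depends on it. In CPM, the control bone marrow mean was 64.8 for Pycard and 29.6 for Casp1, the reverse of their order in RPKM. In control bone marrow the mean RPKM was 36.2 ± 1.09 (SD, n = 3) for Gsdmd, 32.2 ± 0.481 for Il1rn, 19.8 ± 1.54 for Casp1, 17.1 ± 0.575 for Pycard and 11.6 ± 1.09 for Il1r2, with no overlap between neighbours. Il1b at 3.19 ± 1.47 and Casp4 at 1.64 ± 0.341 overlapped, and Nlrp3 (1.03 ± 0.0646) overlapped Il18 (0.722 ± 0.333), with Il1a last at 0.0748 ± 0.0115. In Atg5-knockout bone marrow the order was the same, but Il1rn at 22.7 ± 3.14 overlapped Casp1 at 20.5 ± 0.658. In control blood Il1rn (70.1 ± 13.5) and Gsdmd (63.2 ± 11.6) led and overlapped each other, Il1r2 (38.5 ± 30.3) and Il1b (27.0 ± 26.6) followed, and the ranges overlapped at each step down to Pycard (12.6 ± 3.88). Atg5-knockout blood had Il1rn at 66.2 ± 15.4, Gsdmd at 57.8 ± 2.58 and Il1b at 49.6 ± 50.9. Nlrp3, the sensor, stayed near the bottom in all groups, at 2.41 ± 2.2 in control blood and 3.00 ± 2.55 in Atg5-knockout blood, below Pycard and Casp1.

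The ratio of antagonist to ligand, Il1rn over Il1b in RPKM, was 21.8, 7.65 and 8.20 in control bone marrow and 15.5, 16.9 and 5.42 in Atg5-knockout bone marrow. The blood libraries gave 1.004, 4.42 and 13.1 in control mice and 0.450, 3.93 and 3.49 in Atg5-knockout mice. In RPKM, Il1b exceeded Il1rn in 1 library, Atg5-knockout blood replicate 1. In CPM, Il1b was below Il1rn there, at 207 against 270. The genotypes overlapped in both tissues, and control blood replicate 3 lay within the bone marrow range.

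**Figure D4:**
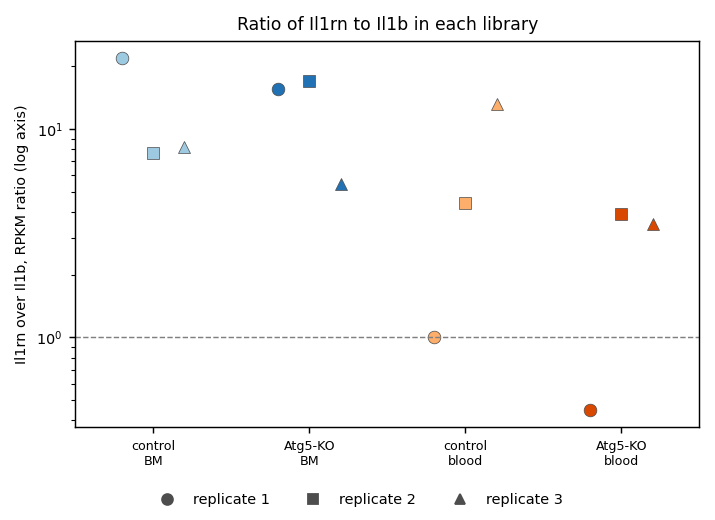
Il1rn over Il1b (ratio of RPKM, log axis) in each library by group and replicate, with a dashed line at a ratio of 1. Bone marrow libraries range from 5.42 to 21.8 and blood libraries from 0.450 to 13.1.

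The other genes of the pathway were taken in 5 lists, 69 genes in all. None of those tested was called between genotypes in either tissue or in the interaction, and calls were made between tissues only. Of the 14 other IL-1 family ligands, receptors and binding proteins, 9 were tested in each tissue comparison, and 0 were called higher and 3 lower in blood of control mice, against 2 and 2 in Atg5-knockout mice. As above, 16.2% of all genes were called higher and 18% lower in control mice, 23.5% and 24.1% in Atg5-knockout mice, and each list below is to be read beside these shares. The median log2 difference of those 9 was -0.42 in control mice and 0.15 in Atg5-knockout mice. Il1r1, the signalling IL-1 receptor, was nearly absent from blood, at 0.474, 0.882 and 0.294 CPM in control mice and 0.379, 0.269 and 0.249 CPM in Atg5-knockout mice. In bone marrow it was at 2.05, 1.42 and 2.40 CPM in control mice and 1.76, 1.97 and 1.58 CPM in Atg5-knockout mice. It fell by 1.79 ± 0.52 on the log2 scale in control mice (edgeR, adjusted p = 0.0267) and by 2.47 ± 0.43 in Atg5-knockout mice (adjusted p = 0.00174). Il1r1 held 34 counts in control blood and 20 in Atg5-knockout blood. In Atg5-knockout mice it passed the filter on low counts through bone marrow alone, so that it had to be lower in blood to be tested. In control mice its blood libraries alone did not suffice, so the filter favoured a lower level in blood there as well. Il1r1 is among the 9 genes in the medians above and among those counted as lower in both genotypes. Il18rap, a chain of the IL-18 receptor, fell by 0.75 ± 0.18 (adjusted p = 0.0127) and by 1.36 ± 0.15 (adjusted p = 0.000123). Il18bp, which binds and blocks IL-18, rose by 1.67 ± 0.27 in Atg5-knockout mice (adjusted p = 0.00112) and differed by 0.94 ± 0.35 in control mice (adjusted p = 0.0667). Il1rl1, the IL-33 receptor, fell by 0.63 ± 0.19 in control mice (adjusted p = 0.0322) and differed by 0.15 ± 0.31 in Atg5-knockout mice (adjusted p = 0.709). The accessory chain Il1rap differed by 0.43 ± 0.22 (adjusted p = 0.158) and 0.41 ± 0.21 (adjusted p = 0.129).

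All 18 genes of IL-1 receptor and NF-kB signalling were tested, and 9 were called higher and 0 lower in blood of control mice, 9 and 1 in Atg5-knockout mice, against 16.2% higher and 18% lower, and 23.5% and 24.1%, of all genes. Their median log2 difference was 0.46 and 0.36. Nfkbiz, an inhibitor-like cofactor of NF-kB that IL-1 induces, was at 3.75, 3.78 and 4.74 CPM in control bone marrow and 72.1, 60.8 and 38.3 CPM in control blood. In Atg5-knockout mice it was at 3.68, 3.68 and 3.53 CPM in bone marrow and 81.7, 53.8 and 128 CPM in blood, so the tissues were far apart in every library. It rose by 3.82 ± 0.28 in control mice (edgeR, adjusted p = 3.02e-05) and by 4.66 ± 0.32 in Atg5-knockout mice (adjusted p = 1.11e-05). The NF-kB inhibitor Nfkbia rose by 1.73 ± 0.32 (adjusted p = 0.00365) and 2.16 ± 0.23 (adjusted p = 0.000111). Tnfaip3, which encodes the inhibitor A20, rose by 2.48 ± 0.46 (adjusted p = 0.00372) and 3.27 ± 0.15 (adjusted p = 1.09e-06), and Nfkb2 by 1.28 ± 0.20 (adjusted p = 0.00172) and 1.14 ± 0.12 (adjusted p = 0.000113). Myd88, the adaptor of the receptor, rose by 0.76 ± 0.20 (adjusted p = 0.0180) and 0.93 ± 0.15 (adjusted p = 0.000932).

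Of 12 other inflammasome sensors and adaptors, 10 were tested, with 1 higher and 2 lower in control mice and 3 and 3 in Atg5-knockout mice, where 34.2% and 47.6% of all genes were called in either direction. Naip5, a receptor for bacterial flagellin, rose by 0.93 ± 0.16 (edgeR, adjusted p = 0.00239) and 1.11 ± 0.13 (adjusted p = 0.000170), though reads of the near-identical Naip genes may be split. Aim2, a sensor of DNA, fell by 1.18 ± 0.23 (adjusted p = 0.00533) and 0.87 ± 0.21 (adjusted p = 0.00867), and Mefv, which encodes pyrin, fell by 0.79 ± 0.20 (adjusted p = 0.0172) and 0.88 ± 0.21 (adjusted p = 0.00791). Nlrp1b rose by 1.65 ± 0.29 in Atg5-knockout mice (adjusted p = 0.00179) and differed by 0.63 ± 0.35 in control mice (adjusted p = 0.188). Sensors thus moved in both directions, with medians of -0.05 and -0.04. Nlrp10, among the 10 tested, held 16 counts in control blood and 32 in Atg5-knockout blood. It needed its bone marrow libraries to pass the filter on low counts in both genotypes, which favoured a lower level in blood. Nlrp10 is in these medians.

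All 15 regulators and cofactors were tested, with 2 higher and 4 lower in control mice and 5 and 5 in Atg5-knockout mice, beside the same 34.2% and 47.6% of all genes. Txnip, which binds NLRP3, rose by 1.56 ± 0.33 (edgeR, adjusted p = 0.00694) and 2.10 ± 0.17 (adjusted p = 2.92e-05). Gbp2, an interferon-induced guanylate-binding protein, rose by 1.80 ± 0.43 (adjusted p = 0.0122) and 2.39 ± 0.37 (adjusted p = 0.000926). The necroptosis kinase Ripk3 fell by 1.16 ± 0.18 (adjusted p = 0.00149) and 1.36 ± 0.18 (adjusted p = 0.000357), and its substrate Mlkl fell by 0.66 ± 0.20 (adjusted p = 0.0315) and 1.09 ± 0.17 (adjusted p = 0.000829). The NLRP3 partner Nek7 was at 90.0 ± 2.54 CPM in control bone marrow and 96.3 ± 14.5 CPM in control blood (SD, n = 3), and differed by 0.11 ± 0.17 (adjusted p = 0.622). P2rx7, the ATP-gated channel that triggers NLRP3, was at 7.10 ± 0.290 CPM in control bone marrow and 4.94 ± 2.13 CPM in control blood. In Atg5-knockout mice P2rx7 was at 8.68 ± 2.22 CPM in bone marrow and 4.95 ± 2.34 CPM in blood. Of 10 other pore formers and inflammatory caspases, 2 were tested: Ninj1, which ruptures the membrane of dying cells, rose by 0.89 ± 0.26 (adjusted p = 0.0299) and 1.38 ± 0.19 (adjusted p = 0.000447), and Gsdme fell by 1.04 ± 0.34 (adjusted p = 0.0420) and 0.97 ± 0.21 (adjusted p = 0.00504).

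**Figure D5:**
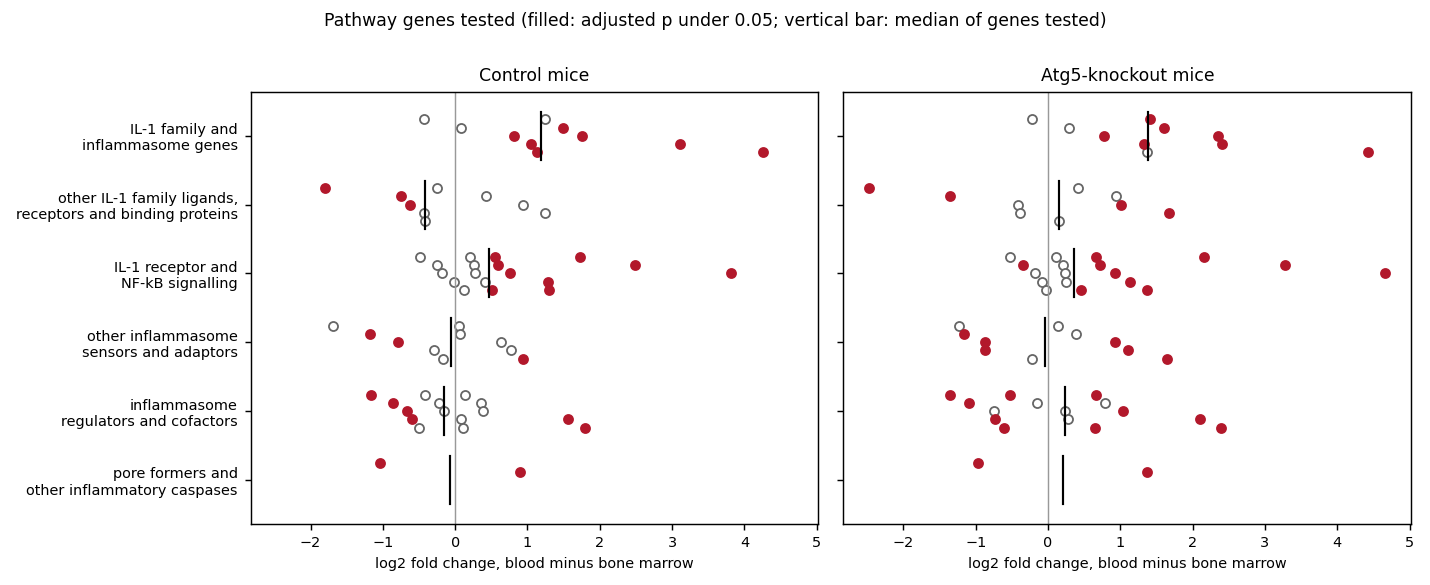
Log2 difference of blood from bone marrow for each gene tested in the 10-gene group and the 5 pathway lists, in control mice and in Atg5-knockout mice (filled circles, adjusted p under 0.05; bars, median of the genes tested). The 10 genes and the signalling list have medians above 0 in both, and every list holds genes on both sides of 0. Il1a, Il1r1 and Nlrp10 are in these medians, and the filter on low counts fixed or favoured their direction.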

How the data were processed

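RNA-seq counts of 12 eosinophil libraries were analysed, 3 for each genotype and tissue. The authors deposited raw counts per gene, made from stranded single-end libraries aligned with HISAT2 (version 2.2.1 in the submitters' processing notes) and counted with featureCounts. The header of the count table names a GRCm38 annotation, a paired-end option and no strand option, while the Methods name GRCm39 and single-end reads, so whether reads or pairs were counted rests on the Methods. Coordinates are those of the table. All columns matched a sample by its label.

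Genes were matched from Ensembl identifiers to symbols. Each comparison was fitted over all genes with edgeR 4.0.16 (R 4.3.3) on the counts of its libraries. The steps were filterByExpr on low counts, TMM scaling, quasi-likelihood test and Benjamini-Hochberg adjustment, with calls at an adjusted p under 0.05. The filter asks for 15 counts in all and for a CPM equal to 10 counts in as many libraries as the smallest group holds. The interaction used all 12 libraries. Fold changes carry a prior count of 0.125, and RPKM is CPM divided by the length in kilobases of all annotated exon bases of the gene. Intervals are at 95% from the standard error and the residual degrees of freedom. The standard error is the size of the fold change divided by the square root of the test's F statistic. The test itself draws on more degrees of freedom, so an interval can be wider than the p-value beside it implies. Alternatives were DESeq2 1.42.0, limma-voom (limma 3.58.1), a fit of all 12 libraries, other scalings and filters, a replicate block and leaving out each library. Leaving out both blood libraries numbered 1 was chosen after seeing the data. The main edgeR fit of each comparison was tested on simulated data. DESeq2, limma-voom and the replicate block were so tested for the genotype comparison in bone marrow only, and the other settings were not.

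The genes and lists were chosen with earlier results of these data known. All 10 were described, with pathway genes called between genotypes, up to 3 of lowest p per list and tissue comparison, and Il1r1, Il1rap, Il1rl1, Nek7, P2rx7 and Myd88. Lists of markers for 9 cell types were also fixed; T and NK cell markers took 0.00791% to 0.0277% of counts, platelet markers 0.0286% to 0.0537%, and basophil and mast cell markers 0.00353% to 0.0200%. In blood, libraries that share a number across the genotypes had deviations from their group means that correlated at 0.501, 0.210 and 0.299 over genes, so the numbers were taken to pair them. What the numbers share is not given in the sources used here. In the other comparisons not every such correlation was over 0.1, with values from -0.147 to 0.127.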

Additional observations from a re-analysis of the deposited data

How the results depend on the processing

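Il1rn alone made the number of the 10 genes called between genotypes in bone marrow 1 with DESeq2 and 1 without the filter on low counts, from 0. Without each library in turn, 3 to 6 of the 10 were called between tissues in control mice and 6 to 9 in Atg5-knockout mice, while 18.5% to 42% and 32% to 54.3% of all genes were. The replicate block, which pairs the blood libraries, left 0 called between genotypes in blood. It left 0 in bone marrow and the interaction, 6 between tissues in control mice, where Il18 was lost (adjusted p = 0.0641), and 7 in Atg5-knockout mice. Scaling by library size alone moved the median of all genes to -0.31 in control mice and -0.24 in Atg5-knockout mice between tissues, and the share of calls higher in blood from 47.3% to 25.1% and from 49.4% to 34.3%.

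Signs turned only where a gene had not been called. Casp1 became -0.0012 in bone marrow with DESeq2-type size factors and -0.21 between tissues in control mice with library size alone, which also gave Il1rn in blood 0.018 and Gsdmd in the interaction 0.036. Without both blood libraries numbered 1, Il1rn in blood was 0.0026. Leaving out 1 library gave ranges across 0 in bone marrow for Il18 (-0.13 to 0.56), Casp1 (-0.067 to 0.081) and Casp4 (-0.13 to 0.16). In blood these were Il1b (-0.41 to 2.07), Il1rn (-0.18 to 0.12), Il1r2 (-1.16 to 0.20), Nlrp3 (-0.63 to 1.36) and Gsdmd (-0.23 to 0.0014). Casp1 ranged from -0.20 to 0.33 between tissues in control mice. In the interaction they were Il1r2 (-0.89 to 0.42), Nlrp3 (-0.82 to 1.13), Pycard (-0.049 to 0.32), Casp1 (-0.061 to 0.47) and Gsdmd (-0.21 to 0.022). The cause of these changes was not tested.

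Over all genes, 48 were called between genotypes in bone marrow, against 191 with DESeq2, 12 in the fit of all 12 libraries, 420 without the filter and 23 with the block. In blood 5 were called, against 23, 16, 77 and 10. The interaction called 0, against 11 with DESeq2 and 119 without the filter. The spread of the blood libraries and the low counts of Il1a and Il18 limit what these comparisons can show.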
